A study of Mus musculus with 4 samples.

Results

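The genes described here are 53 mouse genes that carry a cell through mitosis, of 34547 genes in the tables. They were listed by name and function, with earlier results of these data known, and all 53 were found by symbol in the GENCODE M21 annotation (GRCm38, the same assembly as mm10). HC are hypertrophic chondrocytes of C57BL/6 mouse forelimb cartilage at E15.5 (embryonic day; replicates 3 and 4). PC are proliferating chondrocytes of the same strain and tissue at E14.5 (replicates 1 and 2). Chondrocytes are the cells of cartilage, and the labels name no mutation or treatment. Both groups were cut by laser from frozen sections, and how many animals lie behind each library is not stated here, so p-values measure the spread between these 4 libraries only. Stage and cell state change together between HC and PC and cannot be told apart.

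A proliferating chondrocyte divides in the columns of the growth plate, and a hypertrophic chondrocyte has left the cell cycle and enlarges. Most of the RNAs of mitosis are made late in the cycle and are kept low in cells that do not divide. The kinase Cdk1 with B-type cyclins starts mitosis, condensin compacts the chromosomes, kinetochores tie them to the spindle, and the spindle checkpoint holds the cell until all are attached. The anaphase-promoting complex then marks securin and cyclin B for destruction, separase cuts the cohesin rings, and a contractile ring divides the cell.

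The libraries held 15246529 and 21866266 estimated counts in HC replicates 3 and 4, against 30373440 and 36644496 in PC replicates 1 and 2. Mitochondrial genes took 20.16% and 14.11% of them in HC and 8.81% and 13.15% in PC. The labelled states were checked by marker genes. Of 6 hypertrophic markers all 6 were higher in both HC libraries than in both PC libraries, against 27.7% of all genes tested. Their summed level was 11810 and 21120 TPM (a level per transcript length) in HC against 128.9 and 942.4 TPM in PC. Of 8 proliferating and general chondrocyte markers 7 were lower in both HC libraries, against 33.3% of all genes tested. At an edgeR adjusted p under 0.05, 2 of the 6 hypertrophic markers were higher, against 2.75% of all genes tested. Of the 8 other markers 1 was lower by that test, against 1.96%. PC replicate 2 had more hypertrophic marker RNA than PC replicate 1.

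The mitotic genes were nearly all lower in hypertrophic than in proliferating cartilage. All 53 had enough counts to be tested, and 13 of them (24.5%) fell in HC by the quasi-likelihood test of edgeR with an adjusted p under 0.05, against 1.96% of the 16607 genes tested. None of the 53 was higher by that test, against 2.75% of all genes. From here on, a gene that fell is one called lower in HC by that test. At an edgeR unadjusted p under 0.05, 38 were lower, against 14.4% of all genes, and 1 was higher. DESeq2, at an adjusted p under 0.05, called 39 lower and 1 higher, against 1468 lower and 1651 higher of the 16607 genes. The median log2 fold change (HC over PC) of the 53 genes was -1.93, and that of all genes was -0.04. In 47 genes (88.7%) both HC libraries lay below both PC libraries in CPM (the rate of counts after TMM scaling), against 33.3% of all genes. In 1 gene, Pttg1, both HC libraries lay above both PC libraries, an order found in 27.7% of all genes. The other 5, Spc24, Cenpk, Smc2, Smc4 and Ncaph, overlapped between the groups. The median log2 fold change of the 53 genes was -2.77 without HC replicate 3 and -1.47 without HC replicate 4. That of all genes was -0.11 and -0.21 in these fits. Without PC replicate 1 or 2 the median of the 53 genes lay between -2.77 and -1.47, and that of all genes was 0.05 and 0.07. Scaling to library size alone and limma on TPM each called 0 of the 53 and 0 of all genes at an adjusted p under 0.05. At an unadjusted p under 0.05 they had 43 and 43 to 45 of the 53, against 4394 and 3993 to 4260 of the 16607 genes. In tissue samples such as these, fewer dividing cells and less mitotic RNA per cell cannot be told apart.

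**Figure D1:**
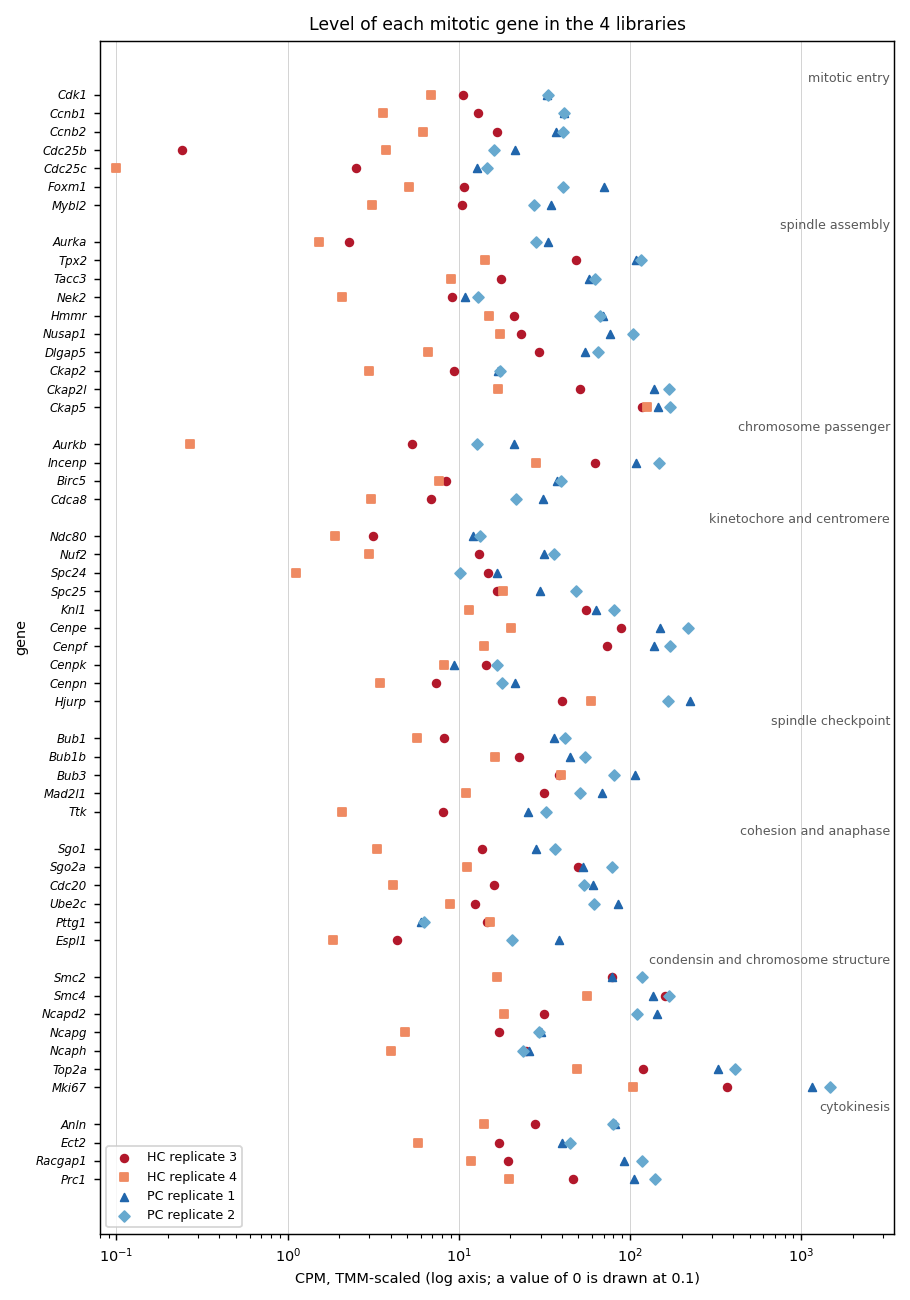
CPM of each of the 53 genes (log axis) in HC replicates 3 and 4 and PC replicates 1 and 2, grouped by role. Both HC points lie left of both PC points in 47 genes, Pttg1 has the opposite order, and the HC points are farther apart than the PC points in most rows.

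Summed over the 53 genes, the level was 694.1 and 481.1 TPM in HC replicates 3 and 4, against 2550 and 2437 TPM in PC replicates 1 and 2. HC replicate 3 thus held 27.8% of the PC mean and HC replicate 4 held 19.3%. The PC libraries agreed closely while the HC libraries did not. By class, HC replicate 3 held between 18.3% (mitotic entry) and 41.5% (spindle assembly) of the PC mean, and HC replicate 4 between 11.2% (chromosome passenger genes) and 28.6% (cohesion and anaphase). In PC the highest mean levels were those of Mki67 (186 TPM), Ncapd2 (152 TPM), Ube2c and Smc4 (129 TPM each), and the lowest those of Espl1 (6.55 TPM), Ndc80 (8.72 TPM) and Nek2 (8.89 TPM).

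**Figure D2:**
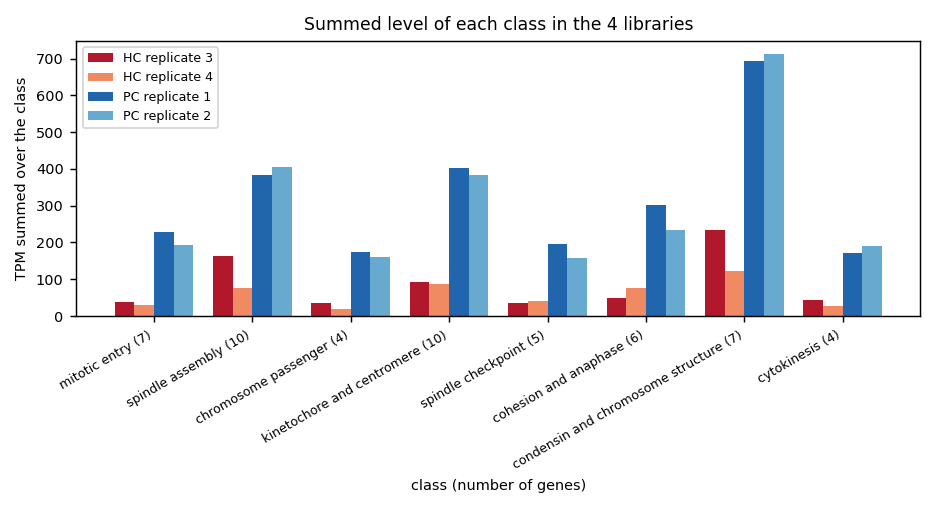
TPM summed over the genes of each class (number of genes in brackets), with a bar for each of the 4 libraries. Every HC bar is shorter than both PC bars of its class, and the bars of the condensin and chromosome structure class reach 233.4 and 122.7 TPM in HC against 694.8 and 712.9 TPM in PC.

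Promoters of many late cell cycle genes are known to hold a cell cycle genes homology region (CHR), which the MuvB complexes bind, together with CCAAT boxes, which NF-Y binds. The CHR was searched as the letters TTTGAA or TTCGAA and the CCAAT box as CCAAT, on both strands, in the 250 bases before the start that RefSeq gives (GRCm38.p6, 1 window per gene, 45 of the 53 genes matched). The CHR letters were in 17 of 45 windows (37.8%), against 17.4% of 27025 promoters of the same length. Within the last 100 bases before the start they were in 11 (24.4%), against 6.29%. At least 2 CCAAT boxes, counting overlapping letters on opposite strands as separate matches, were in 18 windows (40%), against 10.5%. Both features together were in 10 (22.2%), against 1.82%. Letters of 1 form of an E2F-type site (TTCCCGC, both strands) were in 0 of 45, against 3.84%. Other forms of that site were not searched, so these windows may still hold E2F-type letters. The share with CHR letters was 33.3% (4 of 12) among the genes that passed the expression test and 39.4% (13 of 33) among those that did not. A match of letters is not a measured site.

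The 4 genes that passed and held CHR letters are shown, chosen without regard to CCAAT boxes. Each also held at least 1 CCAAT box, in different layouts before the RefSeq start. CHR letters, CCAAT boxes and their reverse complements are in capitals, the strand is that of the gene, and each sequence ends at the base before the RefSeq start. GENCODE M21 places the start of each of these genes inside the window.
Ube2c (chr2:164769679-164769928, plus strand): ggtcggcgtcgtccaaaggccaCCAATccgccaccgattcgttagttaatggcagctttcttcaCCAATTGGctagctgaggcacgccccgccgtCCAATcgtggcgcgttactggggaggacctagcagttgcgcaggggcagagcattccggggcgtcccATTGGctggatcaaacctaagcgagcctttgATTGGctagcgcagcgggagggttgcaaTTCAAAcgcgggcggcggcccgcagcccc
Ncapd2 (chr6:125191587-125191836, minus strand): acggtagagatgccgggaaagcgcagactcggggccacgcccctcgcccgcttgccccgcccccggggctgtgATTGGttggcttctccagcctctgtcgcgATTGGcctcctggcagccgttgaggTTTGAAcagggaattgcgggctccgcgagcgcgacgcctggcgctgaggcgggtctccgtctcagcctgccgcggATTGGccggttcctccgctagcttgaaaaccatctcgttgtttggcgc
Espl1 (chr15:102296043-102296292, plus strand): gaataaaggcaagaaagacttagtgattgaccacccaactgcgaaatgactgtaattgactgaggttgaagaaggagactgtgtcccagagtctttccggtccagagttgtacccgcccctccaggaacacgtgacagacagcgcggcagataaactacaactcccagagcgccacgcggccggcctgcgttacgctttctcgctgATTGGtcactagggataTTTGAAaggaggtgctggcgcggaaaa
Cdk1 (chr10:69352913-69353162, minus strand): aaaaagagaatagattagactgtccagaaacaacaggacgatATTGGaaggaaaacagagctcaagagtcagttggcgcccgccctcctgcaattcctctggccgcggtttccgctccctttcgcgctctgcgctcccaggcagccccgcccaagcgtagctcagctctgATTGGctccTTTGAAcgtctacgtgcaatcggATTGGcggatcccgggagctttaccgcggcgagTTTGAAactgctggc
In Ube2c the CHR letters began 29 bases before the start, after 6 CCAAT matches, of which 2 overlap. Espl1 had CHR letters 27 bases before the start and a CCAAT box 17 bases ahead of them. Cdk1 had CHR letters at 71 and 15 bases before the start and 3 CCAAT boxes. In Ncapd2 the CHR letters lay farther from the RefSeq start, at 123 bases, between CCAAT boxes at 148 and 48. All these distances hold for the RefSeq start only. From the GENCODE starts they change, and some of the matches fall inside the gene.

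Of the 7 mitotic entry genes 2 fell in HC, and all 7 had both HC libraries below both PC libraries. Cdk1 (chromosome 10, 69335146 to 69352938), the kinase that drives entry, had 10.6 and 6.84 CPM in HC replicates 3 and 4, against 32.7 and 33.4 CPM in PC replicates 1 and 2. Its PC libraries were almost equal, and it was at -1.93 ± 0.38 on the log2 scale (HC over PC with its SE, n = 2 per group, edgeR adjusted p = 0.0498). That call was lost without PC replicate 1 or 2 (edgeR adjusted p = 0.116 and 0.103) and with RLE or upper quartile scaling (edgeR adjusted p = 0.051 and 0.0548).

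Foxm1 (chromosome 6, 128362967 to 128376146), a transcription factor of G2 and mitosis genes, had 10.7 and 5.09 CPM in HC, against 70.5 and 40.5 CPM in PC. The groups were far apart, with -2.82 ± 0.52 on the log2 scale (edgeR adjusted p = 0.0458) and -3.48 without HC replicate 3, and its call was lost with an offset for mean transcript length (a length offset, edgeR adjusted p = 0.106). Mybl2, the Myb protein that joins MuvB, had 10.5 and 3.11 CPM in HC and 34.6 and 27.6 CPM in PC (-2.21 ± 0.62, edgeR adjusted p = 0.095). The cyclins Ccnb1 and Ccnb2, which activate Cdk1, did not pass (edgeR adjusted p = 0.0881 and 0.102). Ccnb1 had 13.0 and 3.60 CPM in HC and 41.1 and 41.2 CPM in PC, and Ccnb2 had 16.6 and 6.17 CPM in HC and 36.8 and 40.8 CPM in PC. Ccnb1 passed when any of the 4 libraries was left out.

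The phosphatases Cdc25b and Cdc25c, which remove the inhibitory phosphates of Cdk1, were nearly absent from 1 HC library each. Cdc25b had 3 and 83 counts in HC replicates 3 and 4, against 728 and 620 counts in PC. Cdc25c had 31 and 0 counts in HC, where 0 counts allow up to 0.135 CPM, against 436 and 563 counts in PC. The HC library that held almost none differed between these 2 genes, and neither passed (edgeR adjusted p = 0.125 and 0.212).

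Of the 10 spindle assembly genes 4 fell, and all 10 had both HC libraries below both PC libraries. Aurka (chromosome 2, 172356190 to 172370535), the centrosome kinase of spindle assembly, had 2.27 and 1.53 CPM in HC, against 33.0 and 28.3 CPM in PC. Its difference was -4.02 ± 0.44 on the log2 scale (edgeR adjusted p = 0.0359), and it ranged from -3.80 to -4.35 when single libraries were left out. Tpx2, the protein that activates Aurka on microtubules, had 48.6 and 14.3 CPM in HC and 109 and 116 CPM in PC. It missed the threshold (-1.84 ± 0.58, edgeR adjusted p = 0.115) and was at -3.00 without HC replicate 3.

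Tacc3, which stabilises spindle fibres with the microtubule polymerase Ckap5, had 17.7 and 9.05 CPM in HC, against 57.8 and 62.8 CPM in PC (-2.18 ± 0.42, edgeR adjusted p = 0.0479). It was at -2.77 without HC replicate 3, and its call was lost with upper quartile scaling (edgeR adjusted p = 0.0524) and with a length offset (-1.19, edgeR adjusted p = 0.269). Ckap5 itself had 117 and 125 CPM in HC and 146 and 172 CPM in PC (-0.39 ± 0.28, edgeR adjusted p = 0.433), and turned to 0.17 with a length offset. In TPM its groups overlapped, with 56.0 and 31.0 TPM in HC and 48.4 and 64.9 TPM in PC. Partners of 1 spindle complex thus differed in the size of their change, a difference that was not tested. Hmmr, a spindle assembly factor, had 21.1 and 15 CPM in HC and 69.6 and 66.9 CPM in PC. Nusap1, a microtubule bundling protein, had 23.2 and 17.3 CPM in HC and 76.5 and 104 CPM in PC. Both fell, by 1.92 and 2.15 on the log2 scale, and the call of Hmmr was lost without PC replicate 1 and with a length offset (edgeR adjusted p = 0.0528 and 0.0714). The microtubule-associated Ckap2l, at 51.2 and 16.9 CPM in HC and 138 and 169 CPM in PC, did not pass (edgeR adjusted p = 0.0813). The mitotic kinase Nek2 and the spindle proteins Dlgap5 and Ckap2 did not pass either, with log2 fold changes from -1.75 to -1.10.

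All 4 chromosome passenger genes had both HC libraries below both PC libraries, and 1 passed as lower, Birc5. The chromosome passenger complex corrects wrong attachments at the centromere and moves to the midzone at anaphase. Birc5 (chromosome 11, 117849251 to 117855743), also called survivin, had 8.44 and 7.61 CPM in HC, against 37.2 and 39.4 CPM in PC (-2.25 ± 0.33, edgeR adjusted p = 0.0365, and 0.0525 with a length offset). Its HC libraries differed least within the complex. The kinase Aurkb had 5.36 and 0.27 CPM in HC and 21.1 and 12.7 CPM in PC, and did not pass (-2.62 ± 1.19, edgeR adjusted p = 0.225). Leaving out HC replicate 3 gave -5.98 and leaving out HC replicate 4 gave -1.70, and it passed in these fits and without PC replicate 2 (edgeR adjusted p = 0.000292, 0.0156 and 0.0348). The scaffold Incenp had 62.4 and 28.4 CPM in HC and 108 and 147 CPM in PC, and Cdca8, borealin, had 6.90 and 3.06 CPM in HC and 30.9 and 21.6 CPM in PC (edgeR adjusted p = 0.106 and 0.0607).

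Of the 10 kinetochore and centromere genes, 8 had both HC libraries below both PC libraries and 2 overlapped. The 1 that passed as lower was Hjurp (chromosome 1, 88262471 to 88277633), the chaperone that deposits the centromeric histone Cenpa. Hjurp had 39.9 and 59.1 CPM in HC, against 224 and 167 CPM in PC. HC replicate 4 was the higher HC library here, unlike in most of the 53 genes. Its log2 fold change was -1.98 ± 0.35 (edgeR adjusted p = 0.0432), a call lost without PC replicate 1 and with a length offset (0.0546 and 0.0624, edgeR adjusted p).

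None of the 4 subunits of the NDC80 complex, which grips microtubules, passed. Ndc80 had 3.17 and 1.89 CPM in HC and 12.1 and 13.3 CPM in PC. Nuf2 had 13.2 and 2.97 CPM in HC and 31.3 and 35.8 CPM in PC. Spc25 had 16.6 and 18 CPM in HC and 29.6 and 48.6 CPM in PC. In these 3 the groups did not overlap (edgeR adjusted p = 0.0641, 0.131 and 0.113). Spc24 had 14.9 and 1.12 CPM in HC and 16.7 and 10.2 CPM in PC, so the groups overlapped (-0.76 ± 1.06), and its value was 0.11 without HC replicate 4 and -3.61 without HC replicate 3. Their levels per length in PC were 8.72 TPM for Ndc80, 23.3 for Nuf2, 23.5 for Spc24 and 61.9 for Spc25.

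In Knl1, Cenpe and Cenpf, HC replicate 3 was more than 4 times above HC replicate 4. The scaffold Knl1 had 55.0 and 11.5 CPM in HC and 63.4 and 80.4 CPM in PC (-1.12 ± 0.70, edgeR adjusted p = 0.364). In TPM the groups of Knl1 overlapped, with 15.2 and 2.02 TPM in HC and 13.3 and 14.9 TPM in PC. The kinesin Cenpe had 88.7 and 20.1 CPM in HC and 150 and 217 CPM in PC, and the large kinetochore protein Cenpf had 73.8 and 14.1 CPM in HC and 138 and 172 CPM in PC (edgeR adjusted p = 0.175 and 0.185). Without HC replicate 3 the values of Knl1 and Cenpf were -2.68 and -3.49, and without HC replicate 4 they were -0.43 and -1.12. Of the inner kinetochore genes, Cenpn had 7.31 and 3.47 CPM in HC and 21.2 and 17.9 CPM in PC, and Cenpk had 14.4 and 8.15 CPM in HC and 9.41 and 16.8 CPM in PC. Cenpk gave no clear direction (-0.22 ± 0.50), and was 0.23 without PC replicate 2 and 0.09 without HC replicate 4.

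Among the 5 spindle checkpoint genes 1 fell, Bub1 (chromosome 2, 127801122 to 127831865), the kinase that recruits the checkpoint to kinetochores. Bub1 had 8.20 and 5.67 CPM in HC, against 36.1 and 41.9 CPM in PC (-2.50 ± 0.37, edgeR adjusted p = 0.037). The checkpoint subunit Bub1b had 22.5 and 16.3 CPM in HC and 44.9 and 54.3 CPM in PC (edgeR adjusted p = 0.0759). Bub3, which binds both, had 38.5 and 39.5 CPM in HC and 107 and 80.9 CPM in PC (-1.27 ± 0.30, edgeR adjusted p = 0.071). The HC libraries of Bub3 were almost equal. Mad2l1, which holds Cdc20 in check, had 31.6 and 11 CPM in HC and 68.7 and 51.3 CPM in PC (-1.50 ± 0.54, edgeR adjusted p = 0.148). The kinase Ttk (Mps1) had 8.12 and 2.07 CPM in HC and 25.3 and 32.5 CPM in PC (-2.53 ± 0.68, edgeR adjusted p = 0.0887). All 5 had both HC libraries below both PC libraries.

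Of the 6 genes of cohesion and anaphase 2 fell, and 5 had both HC libraries below both PC libraries. Ube2c (chromosome 2, 164769898 to 164778822), the ubiquitin-conjugating enzyme of the anaphase-promoting complex, had 12.4 and 8.87 CPM in HC, against 85.5 and 61.5 CPM in PC (-2.79 ± 0.37, edgeR adjusted p = 0.0359). Espl1 (chromosome 15, 102296266 to 102324357), separase, had 4.38 and 1.85 CPM in HC, against 38.7 and 20.5 CPM in PC (-3.27 ± 0.61, edgeR adjusted p = 0.0471). Espl1 was at -4.03 without HC replicate 3 and lost its call without PC replicate 1 and with a length offset (edgeR adjusted p = 0.065 and 0.0531). The activator Cdc20 had 16.1 and 4.14 CPM in HC and 60.9 and 53.7 CPM in PC (-2.52 ± 0.65, edgeR adjusted p = 0.0823). Of the shugoshins, which protect centromeric cohesion, Sgo1 was at -1.94 ± 0.68 and Sgo2a at -1.11 ± 0.69, and neither passed.

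Pttg1 (chromosome 11, 43420250 to 43426251), securin, which inhibits separase until anaphase, went the other way. It had 14.7 and 15.2 CPM in HC, against 6.01 and 6.26 CPM in PC. Both libraries of each group were close together, and the log2 fold change was 1.28 ± 0.40, which did not pass (edgeR adjusted p = 0.113). It passed without HC replicate 3 or 4 (edgeR adjusted p = 0.0247 and 0.0275) and not without PC replicate 1 or 2 (edgeR adjusted p = 0.841 and 0.659). Its counts were low, at 181 and 337 in HC and 207 and 241 in PC. In TPM the groups overlapped, with 17.1 and 55.4 TPM in HC and 18.1 and 20.1 TPM in PC.

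Of 7 condensin and chromosome structure genes 1 fell, the condensin I subunit Ncapd2 (chromosome 6, 125168007 to 125191701). Ncapd2 had 31.4 and 18.3 CPM in HC, against 144 and 110 CPM in PC (-2.36 ± 0.39, edgeR adjusted p = 0.0394, and 0.0604 with a length offset). In Smc2, Smc4 and Ncaph, HC replicate 3 lay close to or within the range of PC, and HC replicate 4 lay below it. Smc2 had 78.6 and 16.6 CPM in HC and 78.3 and 118 CPM in PC. Smc4 had 160 and 56.1 CPM in HC and 136 and 168 CPM in PC. These 2 ATPases form the core of both condensins. Ncaph had 24.7 and 4.01 CPM in HC and 25.6 and 23.8 CPM in PC, while Ncapg had 17.1 and 4.82 CPM in HC and 30.3 and 29.2 CPM in PC, without overlap. None of the 4 passed, with log2 fold changes of -1.05, -0.49, -0.79 and -1.45, and without HC replicate 4 that of Smc4 was 0.03.

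Top2a, the topoisomerase that untangles sister chromatids, had 119 and 48.7 CPM in HC, against 327 and 410 CPM in PC (-2.14 ± 0.49, edgeR adjusted p = 0.0671). Mki67 (chromosome 7, 135689784 to 135716361), which coats mitotic chromosomes and is used as a marker of proliferation, had 366 and 104 CPM in HC, against 1150 and 1480 CPM in PC. It had the most counts of the 53 genes, 4510 and 2311 in HC and 39602 and 57040 in PC, and did not pass (-2.48 ± 0.64, edgeR adjusted p = 0.0821). Its HC libraries differed 3.52 times in CPM. Both genes passed when any of the 4 libraries was left out.

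In cytokinesis 1 of 4 genes fell, Racgap1 (chromosome 15, 99620496 to 99651656), which with Ect2 activates the contractile ring. Racgap1 had 19.5 and 11.8 CPM in HC, against 92.3 and 118 CPM in PC (-2.75 ± 0.38, edgeR adjusted p = 0.0359). The ring protein anillin (Anln) had 28.0 and 14 CPM in HC and 81.3 and 79.3 CPM in PC (edgeR adjusted p = 0.0573). Prc1, which bundles midzone microtubules, had 46.7 and 19.7 CPM in HC and 106 and 140 CPM in PC (edgeR adjusted p = 0.0794). Ect2 had 17.2 and 5.81 CPM in HC and 39.8 and 44.6 CPM in PC (edgeR adjusted p = 0.101). All 4 had groups that did not overlap.

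**Figure D3:**
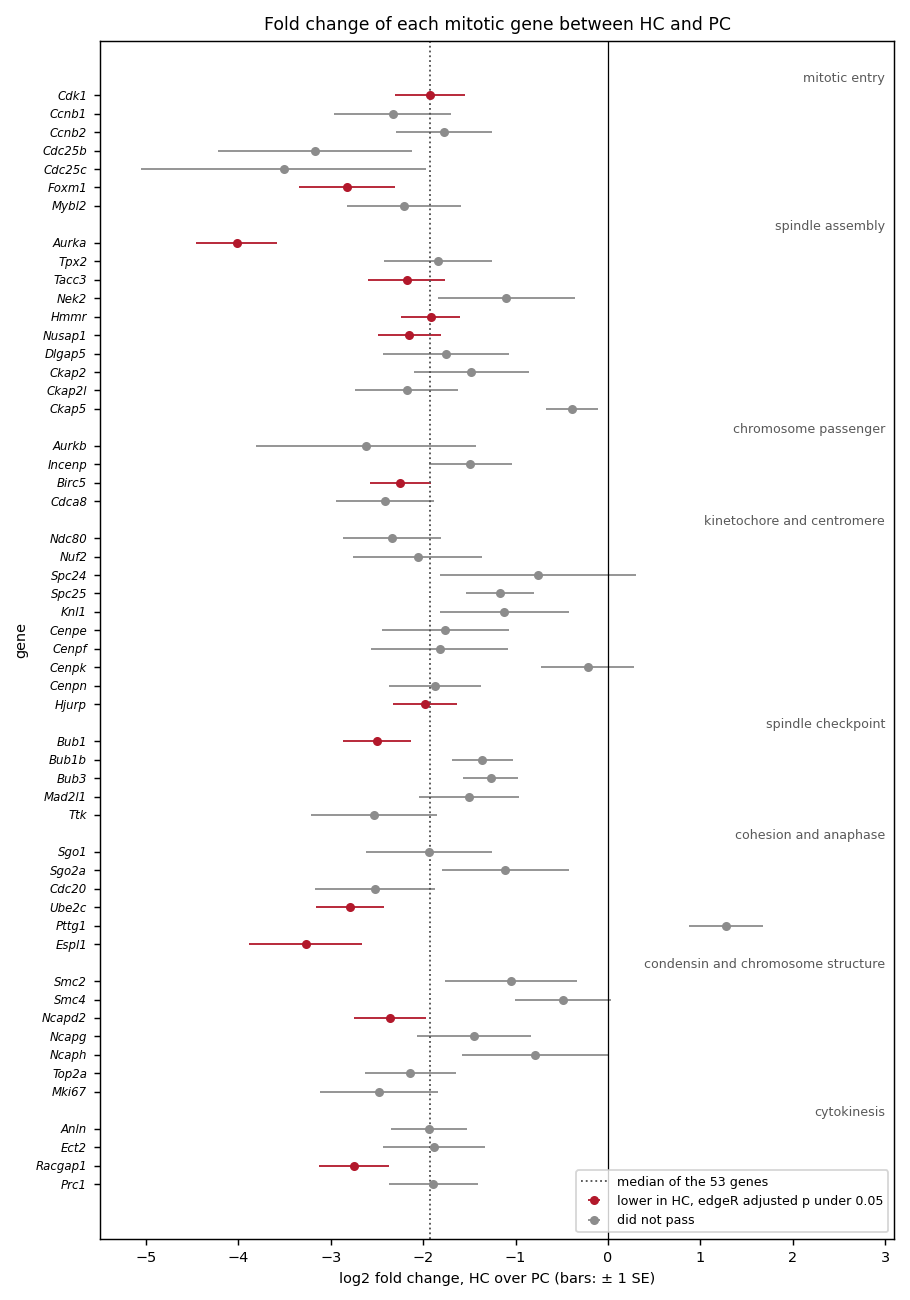
Log2 fold change (HC over PC) of the 53 genes by class with bars of 1 SE, red where edgeR's adjusted p was under 0.05 and grey where it was not. The 13 red points run from -4.02 (Aurka) to -1.92 (Hmmr), Pttg1 alone lies above 0 at 1.28, and the dotted line marks the median of -1.93.

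In most of these genes the HC libraries lay farther apart than the PC libraries. HC replicate 3 was higher than HC replicate 4 in 47 of the 53 genes, against 46.3% of all genes tested. It was more than 2 times higher in 33 genes (18.6% of all genes), and the median ratio was 2.41, against 0.93 over all genes. Of the 2 PC libraries, neither was more than 2 times above the other in any of the 53 genes, against 11.8% of all genes, and the median ratio of PC replicate 1 over PC replicate 2 was 0.91. The ratio of HC replicate 3 over 4 was lowest in median for checkpoint genes (1.45) and highest for condensin and chromosome structure genes (3.52). Exceptions with more RNA in HC replicate 4 were Cdc25b, Ckap5, Hjurp, Spc25, Bub3 and Pttg1. Taking the median over the 53 genes, HC replicate 3 stood at 37.4% of the PC mean in CPM and HC replicate 4 at 15%.

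**Figure D4:**
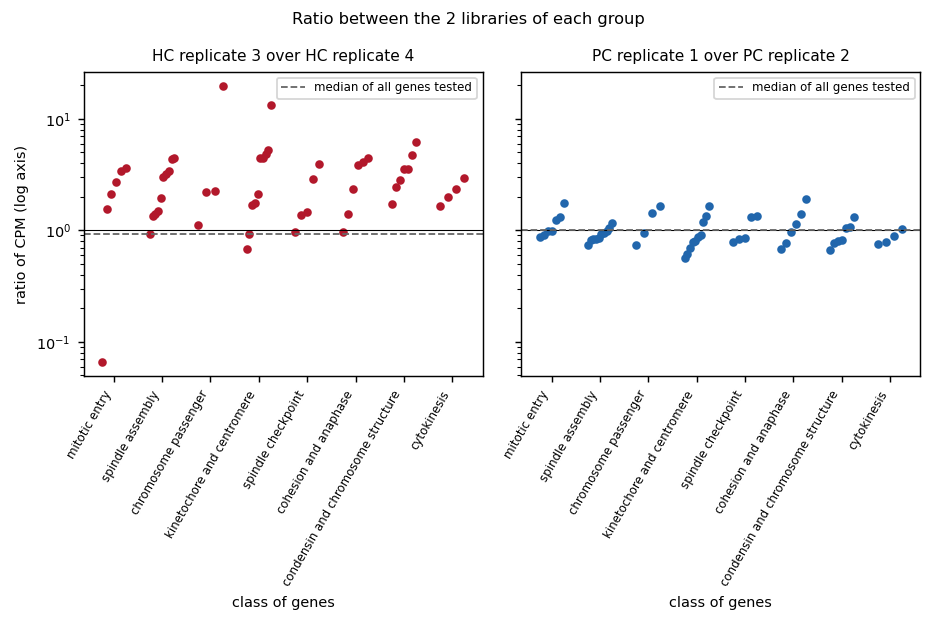
Ratio of CPM between the 2 libraries of HC (left) and of PC (right) for each gene by class, on a log axis, with the median of all genes tested as a dashed line. Most HC points lie above 1, up to 19.8 for Aurkb, while all PC points lie between 0.56 and 1.89; Cdc25c, with no count in HC replicate 4, has no HC point.

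Most markers of muscle, vessels, blood, macrophages and perichondrium also lay higher in HC, and most of these were higher in HC replicate 3 than in HC replicate 4. Over all genes tested, 27.7% had both HC libraries above both PC libraries and 2.75% passed as higher. Of 7 muscle markers tested, 7 had both HC libraries above both PC libraries and 1 passed, with sums of 165.3 and 97.93 TPM in HC and 60.76 and 67.31 TPM in PC, while the myogenic factors Myod1 (0 TPM in both) and Myog (1.84 and 0 TPM) were at or near 0 in HC and were not tested. Endothelial markers lay above in 6 of 6, with 2 that passed (70.45 and 66.33 TPM in HC, 18.81 and 13.7 TPM in PC). Red blood cell markers lay above in 6 of 7, with 4 that passed (457.8 and 684.3 TPM in HC, 68.24 and 101 TPM in PC), and were the most abundant of these after the perichondrial ones. Macrophage markers lay above in 5 of 6, with 2 that passed (84.8 and 55.34 TPM in HC, 7.167 and 12.78 TPM in PC). Perichondrium and osteoblast markers lay above in 4 of 6, with 1 that passed (1958 and 1082 TPM in HC, 264.9 and 330.7 TPM in PC). In CPM, HC replicate 3 was the higher HC library in 6 of 7 muscle, 6 of 6 endothelial and 6 of 7 red blood cell markers. The same held for 5 of 6 macrophage and 5 of 6 perichondrial markers, against 46.3% of all genes tested. The summed TPM of the red blood cell markers was higher in HC replicate 4. The part of such cells in the mitotic RNA of either group was not tested.

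A few genes differed in the transcripts to which their reads were assigned. Among 43 of the 53 genes that have both protein-coding and other transcripts, the coding share of counts was lower in both HC libraries than in both PC libraries in 9 (20.9%), against 20.0% of 9777 genes of that kind, so the genes as a group were near the background. In 4 of those 9 (9.3% of the 43, against 3.53% of the 9777), named here after their values were seen, the mean share was also more than 40 points lower in HC. Ncaph had a like mean gap, but only HC replicate 4 was low, with a coding share of 85.5% and 0% in HC and 81.8% and 87.3% in PC. For Ect2, 0 and 0 coding counts were estimated in HC, against 1265 and 1643 in PC, and 81.2% and 56.2% of its HC counts went to a transcript annotated for nonsense-mediated decay. For Cenpn, 0 and 0 coding counts were estimated in HC, against 595 and 418 in PC, and all HC counts went to a retained-intron transcript. For Ttk, 12 and 0 coding counts stood against 571 and 771 in PC, and 88.2% and 100% of the HC counts were on a retained-intron transcript. For Cdca8 the coding share was 33.5% and 38.3% in HC and 91.8% and 72.0% in PC. The error of such assignments is unknown, and these genes had between 46 and 212 counts per HC library. TPM and CPM can also part where transcript lengths differ between libraries. Tpx2 had 36.7 and 4.96 TPM in HC against 48.8 and 48.3 TPM in PC, with a mean transcript length weighted by TPM of 1177 and 3715 bases in HC and 3500 and 3291 bases in PC.

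Among 110 other genes of mitosis, 9 (8.18%) were lower in HC and 0 higher by the same test, against 1.96% and 2.75% of all genes. Their median log2 fold change was -0.64. In 65 of them (59.1%) both HC libraries lay below both PC libraries, against 33.3% of all genes. In 11 both lay above, an order found in 27.7% of all genes. Those lower were cyclin A2 (Ccna2, -2.32 ± 0.40), the Aurka activator Bora (-2.66 ± 0.40), the centromeric histone Cenpa (-2.27 ± 0.33), the ubiquitin-conjugating enzyme Ube2s (-2.04 ± 0.29), the cohesin acetyltransferase Esco2 (-3.20 ± 0.53), the motor Kifc1 (-3.01 ± 0.57), the spindle protein Troap (-3.91 ± 0.52), citron kinase (Cit, -1.94 ± 0.32) and Arhgef39. Arhgef39 had 1 and 0 counts in HC, against 317 and 173 counts in PC. Without PC replicate 1 the calls of Bora, Cenpa, Esco2, Kifc1, Cit and Arhgef39 were lost (edgeR adjusted p = 0.0556, 0.0538, 0.154, 0.152, 0.099 and 0.357), and without PC replicate 2 those of Bora and Esco2 (0.0752 and 0.125, edgeR adjusted p). Kifc1 was at -3.69 without HC replicate 3.

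Cohesin and its regulators, which are also used outside mitosis, had a median of -0.02 over 13 genes that went both ways. They ran from -3.20 (Esco2, which fell) to 0.86 (the ring subunit Stag2). In both HC libraries 5 genes were lower (38.5%) and 4 higher, and 4 overlapped. Over all genes 33.3% were lower and 27.7% higher in both, so cohesin was near the background. Smc3, another ring subunit, had 414 and 251 CPM in HC and 226 and 370 CPM in PC. The 5 genes of the MuvB core had a median of -0.27 and 0 passed. Subunits and regulators of the anaphase-promoting complex had a median of -0.45 over 17 genes, with Ube2s as the 1 that passed. The other mitotic entry genes had a median of -1.52 over 13 genes, and other kinetochore and centromere genes -0.70 over 28. Differences between these classes were not tested.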

How the data were processed

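RNA was measured by sequencing of 4 libraries (2 HC, 2 PC), each made from 10 ng of RNA with a kit for degraded RNA, per the labels' protocols. The submitters' processing notes name Trimmomatic 0.36, kallisto 0.43.1 and mm10. The strand setting is not stated here. The deposited tables hold, per the file headers, an estimated count and a TPM value for each transcript. TPM, as deposited, keeps no depth, and estimated counts of similar transcripts are split by likelihood.

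Of 109282 transcripts 107987 matched GENCODE M21. Unmatched ones held 0.36% to 0.53% of counts and were left out. Estimated counts were summed per gene, rounded and filtered with filterByExpr (16607 genes kept). They were tested with edgeR 4.0.16 (TMM factors 0.812 and 1.021 in HC, 1.14 and 1.058 in PC), adjusted over all genes by Benjamini-Hochberg at a threshold of 0.05. SEs derive from the coefficient and the F statistic. The script was checked on simulated data.

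The 53 genes, the 110 other mitosis genes and the marker lists were chosen with earlier results of these data known. Named with full values are genes that passed and the 2 highest by mean TPM in each class, and all 53 could be named. The planned comparison of protein sequences was not made. Counts of the 2 libraries of a group differed beyond sampling noise (chi-square per degree of freedom 193.3 in HC and 101.9 in PC). R 4.3.3, limma 3.58.1, DESeq2 1.42.0, Python 3.11.15 and matplotlib 3.10.9 were used. Limits from 0 counts are 3 counts and cover counting error only. Alternatives changed scaling, filter, test, unit and libraries, and counts over coding transcripts alone were added after seeing the data.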

Additional observations from a re-analysis of the deposited data

How the results depend on the processing

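With 2 libraries a group, the calls sat close to the threshold, while the median of the 53 genes was below 0 in every setting tried. It ran from -1.47 (without HC replicate 4) to -2.77 (without HC replicate 3), and was -2.50 with limma on log2(TPM + 0.1). Scaling to library size alone moved the median of all genes to -0.29 and that of the 53 to -2.22.

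Lower in HC were 13 of the 53 genes, 325 of all genes and 9 of the 110 others, and 457 of all genes were higher. Library size alone and limma on log2(TPM + 1) and on log2(TPM + 0.1) each gave 0 for all of these. So did counts over coding transcripts alone (chosen after seeing the data). At an unadjusted p under 0.05 these settings had 43, 45, 43 and 34 of the 53, against 4394, 4260, 3993 and 3761 of all genes. DESeq2 gave 39, 1468, 24 and 1651, with 1 of the 53 (Pttg1) and 2 of the 110 higher. No filter on low counts gave 34, 965, 21 and 963. A length offset gave 7, 167, 6 and 269, and ended the calls of Birc5, Espl1, Foxm1, Hjurp, Hmmr, Ncapd2 and Tacc3. When single libraries were left out, the counts ran from 20 to 49, 257 to 3778, 6 to 44 and 380 to 3332, with 0 to 1 of the 53 and 0 to 4 of the 110 higher.

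Values that changed sign were those of Ckap5 (0.17 with a length offset), Cenpk (0.23 without PC replicate 2, 0.09 without HC replicate 4 and down to -0.72 without HC replicate 3), Smc4 (0.03 without HC replicate 4) and Spc24 (0.11 without HC replicate 4 and down to -3.61 without HC replicate 3). Where a library was left out, the lone library of its group was assumed to vary like the other group. The causes were not tested. No paired analysis was possible because the groups share no replicate numbers.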
